A study of Homo sapiens with 4 samples.

Results

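Gene body peaks are p53 ChIP-seq peaks that lie well inside a protein-coding gene. They were chosen by position alone: the midpoint of a peak on chromosomes 1 to 22 or X had to lie inside a RefSeq protein-coding gene and more than 1 kb from every end of such a gene. In p53WT 1 they numbered 144 of 1591 peaks and in p53WT 2 1015 of 4946. In CASM34 1 they numbered 176 of 1698 and in CASM34 2 603 of 3196. Merged over the 4 libraries by an overlap of at least 1 bp, they formed 1541 of the 7727 regions of the series. The peaks closest to the limit lay 1001 to 1034 bp from a gene end on the inner side, and 870 to 1000 bp on the outer side, depending on the library.

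All libraries came from H1299, an established human non-small-cell lung carcinoma line, labelled p53-/- in both groups. The cells expressed p53 from either the wild type, p53WT, or the mutant form that the labels call CASM34, 2 libraries each, numbered 1 and 2. The series title names cancer-associated synonymous mutations and the DNA damage response of p53, but no damaging agent is given for these libraries. Chromatin was cut with micrococcal nuclease, sonicated and precipitated with the antibody DO-1, which recognises p53. How p53 was brought into the cells, and whether the libraries of a group came from separate cultures, is not given in the sources used here, so the p-values reflect no more than the spread of these libraries, which may be technical.

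p53 is a transcription factor that binds DNA as a tetramer, on a response element made of a pair of similar half-sites. Its best known elements lie in promoters and first introns, as in CDKN1A, but ChIP studies commonly find p53 far from gene starts too. Many genes also have further starts inside their longest annotated span, so a position inside a gene may still be a promoter.

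Sequences are shown for the internal starts that tie these peaks to known p53 targets and to a strong start shared by both libraries numbered 2. An internal start is an annotated RefSeq start that itself lies inside a protein-coding gene and over 1 kb from every gene end. The strand is that of the gene named, the build is GRCh38.p14 from RefSeq, and capitals mark an exact p53 half-site, the palindromic 10-base consensus known by that name. The first and second lines show 30 bases around the half-sites of AEN, an apoptosis-enhancing nuclease (chr15:88621296-88621325, plus strand), and of SESN1, the stress protein sestrin 1 (chr6:109009018-109009047, minus strand). The third shows the 250 bases before the internal start of LIN28B, an inhibitor of let-7 maturation (chr6:104940715-104940964, plus strand), where no exact half-site was found.
AEN: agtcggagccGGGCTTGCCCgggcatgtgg
SESN1: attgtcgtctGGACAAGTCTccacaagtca
LIN28B: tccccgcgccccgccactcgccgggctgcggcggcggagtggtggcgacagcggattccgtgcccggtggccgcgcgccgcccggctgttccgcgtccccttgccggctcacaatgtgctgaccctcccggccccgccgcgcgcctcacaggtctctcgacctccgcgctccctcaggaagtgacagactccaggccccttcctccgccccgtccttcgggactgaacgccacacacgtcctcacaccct
The AEN half-site began 34 bases before the start at 88621340 and lay inside the peaks of p53WT 2 and CASM34 2. The SESN1 half-site began 49 bases before the start at 109008988. It lay 69 bp outside the peak of p53WT 2 and 41 bp outside that of CASM34 2. All 250 bases shown for LIN28B lay in the CASM34 2 peak and 50 of them in the p53WT 2 peak.

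Gene bodies held a larger share of the peaks in the libraries numbered 2 than in those numbered 1, in both groups. The share was 9.05% in p53WT 1 (exact Clopper-Pearson 95% interval 7.69 to 10.6) and 20.5% in p53WT 2 (19.4 to 21.7). It was 10.4% in CASM34 1 (8.96 to 11.9) and 18.9% in CASM34 2 (17.5 to 20.3). Gene end peaks, within 1 kb of an end, differed more between the numbers, with 3.71% and 4.53% in number 1 against 34.7% and 34.5% in number 2, while peaks outside genes and over 100 kb away made up 75.4% and 72.8% in number 1 and 29.9% and 32.9% in number 2. The intervals of the libraries numbered 1 overlap each other and stay below those of the libraries numbered 2. The group means of 14.8% ± 8.11 (SD, n = 2) for p53WT and 14.6% ± 6.01 (SD, n = 2) for CASM34 differed by less than the SD of either group (two-sided exact permutation test, p = 1, and 0.33 is the lowest this design allows). The difference p53WT minus CASM34 came to -1.31 percentage points for the libraries numbered 1 and to 1.65 for those numbered 2. The number of gene body peaks averaged 579.5 ± 615.9 (SD, n = 2) and 389.5 ± 301.9 (SD, n = 2), again within the spread (exact two-sided permutation p = 1). It was lower by 32 in p53WT within number 1 and higher by 412 within number 2. The lists hold no read counts, so the depth is unknown, and the intervals cover counting error only.

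**Figure D1:**
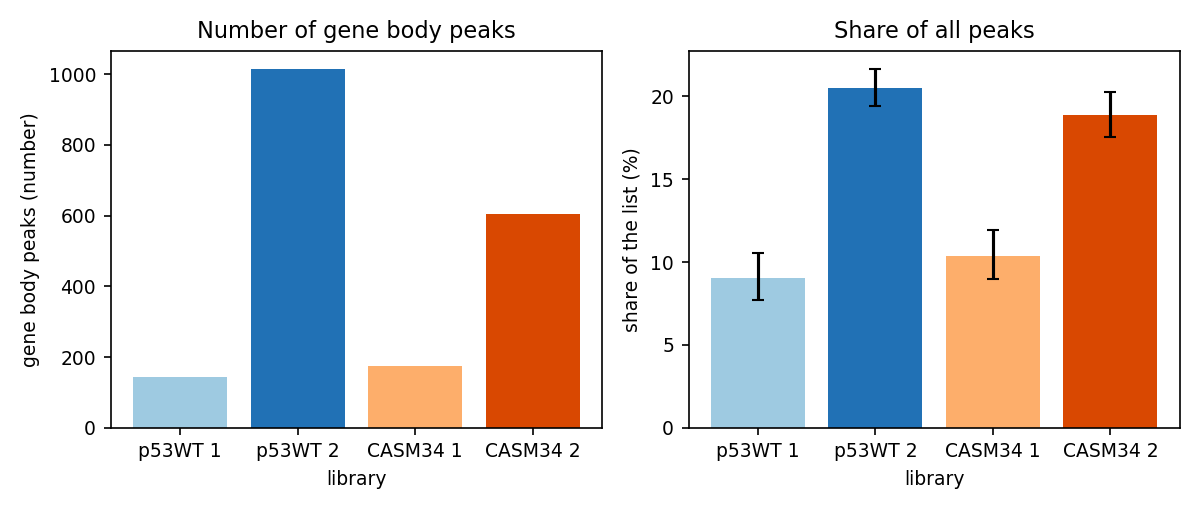
Number of gene body peaks (left) and their share of all peaks of a library in percent (right), 1 bar per library, with exact 95% intervals on the shares. The libraries numbered 2 reach 20.5% and 18.9%, above the 9.05% and 10.4% of those numbered 1.

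Peaks inside genes were ranked lower than the other peaks of the same library, most of all than those far from genes. Rank percentile is the percent of a library's peaks with a −log10 p at or below that of the peak, so that 100 is the strongest. The median rank percentile of gene body peaks was 27.5 in p53WT 1, 41.5 in p53WT 2, then 30.1 in CASM34 1 and 36.5 in CASM34 2. Other peaks had medians from 52.1 to 53.2. Peaks over 100 kb from genes had 55.4, 76.0, 56.3 and 77.3 in the same order of libraries, whereas gene end peaks had 18.5, 43.2, 20.4 and 37.9, below the gene body medians in the libraries numbered 1 and slightly above them in those numbered 2. Against all other peaks together, gene body peaks were lower in 4 of 4 libraries, by 18.7 ± 6.0 percentile points on average (SD, n = 4, exact two-sided sign-flip permutation p = 0.13, the smallest possible). The deposited fold, the caller's ratio of signal over background, had medians of 5.29, 4.43, 5.08 and 4.50 in gene bodies against 6.44, 4.79, 6.23 and 4.95 elsewhere, in the same order of libraries. The difference of gene body peaks from other peaks ran from -1.15 to -0.36 in the 4 libraries (exact two-sided sign-flip permutation p = 0.13). Median widths of 221 to 248.5 bp did not separate them from other peaks, whose medians ran from 224 to 235.5 bp (exact two-sided sign-flip permutation p = 0.25).

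The density of peaks fell with distance from the gene ends. Between 1 and 2 kb from an end the density per Mb of gene body was 0.238 in p53WT 1 and 4.25 in p53WT 2, and it was 0.423 in CASM34 1 and 3.06 in CASM34 2. Over 100 kb from any end the densities were 0.069, 0.426, 0.076 and 0.217 in the same order. The ratio of these densities was 3.46, 9.97, 5.59 and 14.1. The difference had the same direction in 4 of 4 libraries (exact two-sided sign-flip permutation p = 0.13, the smallest possible). In the 1 to 2 kb belt, peaks were denser on the start side of genes than on the stop side, where the gene's strand was in the RefSeq start table. In p53WT 2 there were 7.21 peaks per Mb on the start side against 1.83 on the stop side, and in CASM34 2 there were 5.25 against 0.654. The libraries numbered 1 rest on few peaks here, 5 against 0 in p53WT 1 and 9 against 5 in CASM34 1. Start-side density was higher in 4 of 4 libraries (exact two-sided sign-flip permutation p = 0.13). The median distance to the nearest end was 22.1 kb in p53WT 1, 17.3 kb in p53WT 2, 19.7 kb in CASM34 1 and 14.5 kb in CASM34 2. The group means of 19.7 ± 3.36 and 17.1 ± 3.66 kb (SD, n = 2 each) differed by 2.65 kb, less than the SD of either group (exact two-sided permutation p = 0.667). This difference was 2.44 kb within number 1 and 2.86 kb within number 2.

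**Figure D2:**
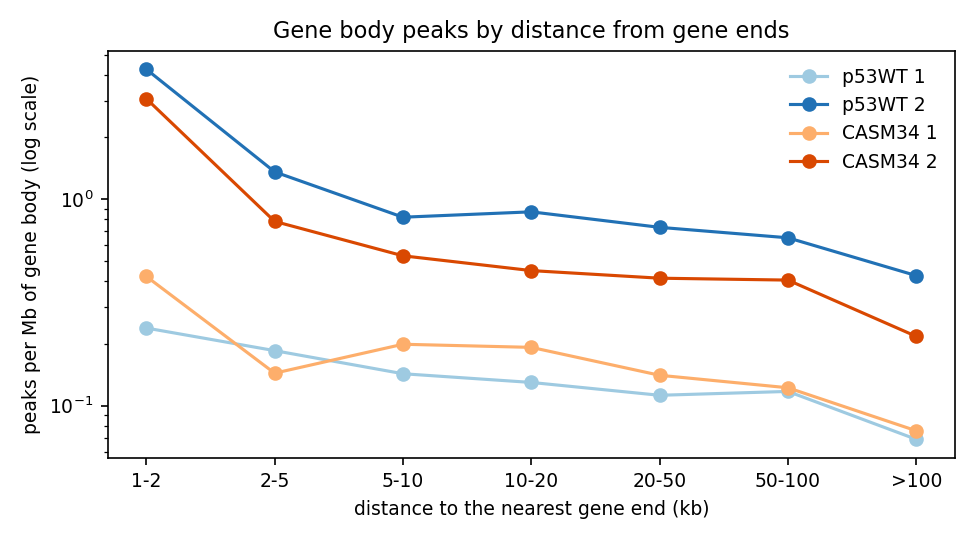
Gene body peaks per Mb of gene body sequence (log scale) in bins of distance to the nearest end of a protein-coding gene (kb), 1 line per library. All 4 lines start highest at 1 to 2 kb (0.238 to 4.25) and end lowest beyond 100 kb (0.069 to 0.426).

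Internal starts were met by gene body peaks far more often in the libraries numbered 2. Of 8211 internal starts, the 300-bp window (250 before to 50 bp after the start) met a gene body peak at 0.0122% in p53WT 1, 1.75% in p53WT 2, and at 0.0244% in CASM34 1 and 1.18% in CASM34 2. Counted by peaks, 1 of 135 gene body peaks (0.741%, 95% interval 0.0188 to 4.06) lay at such a window in p53WT 1 and 120 of 926 (13.0%, 10.9 to 15.3) in p53WT 2. In CASM34 1 it was 2 of 172 (1.16%, 0.141 to 4.14) and in CASM34 2 77 of 555 (13.9%, 11.1 to 17.0). A peak counts when any base touches a window, and a peak of median width would do so from 0.340% to 0.358% of the gene body positions, depending on the library. Chromosome 8, for which no starts were used, is left out of these counts. The groups did not separate, with 6.85% ± 8.64 and 7.52% ± 8.99 (SD, n = 2 each, exact two-sided permutation p = 0.667). Starts of protein-coding genes were met at 2.30% in p53WT 2 and 1.62% in CASM34 2, against 0.902% and 0.498% for starts of long non-coding RNA genes. Exact half-sites were found in the 250 bases before 5.57% of all starts and 6.63% of internal starts, before 9 of 144 internal starts met in p53WT 2 (6.25%), and before 8 of 97 met in CASM34 2 (8.25%). These shares lie close together. Both libraries numbered 2 met the same 23 internal starts, and the 2 of them with a half-site belong to AEN and SESN1.

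Ends of chromosomes held many of the peaks. Within 5 Mb of the outermost RefSeq gene of a chromosome lay 40.97% of the gene body peaks of p53WT 1, 24.8% of those of p53WT 2, 42.6% of those of CASM34 1 and 28.9% of those of CASM34 2. These stretches hold 8.16% of the gene body sequence. The share of peaks was above that of the sequence in 4 of 4 libraries, by 16.7 to 34.5 percentage points (exact two-sided sign-flip permutation p = 0.13, the smallest possible).

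**Figure D3:**
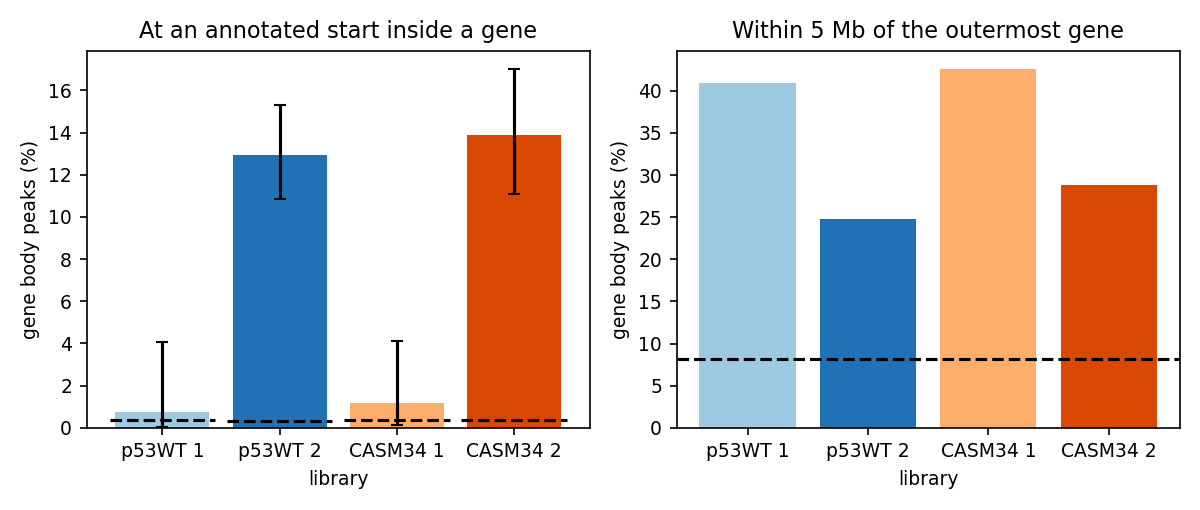
Percent of gene body peaks at the window of an internal start (left, with exact 95% intervals) and within 5 Mb of the outermost gene of a chromosome (right), 1 bar per library; dashed lines give the percent of gene body positions from which a peak of median width would touch a window (left, 0.340% to 0.358%) and of gene body sequence near chromosome ends (right, 8.16%). Starts stand out in the libraries numbered 2, and chromosome ends are above the dashed line in all 4 libraries.

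Most gene body regions were called in a single library. Of 1541 regions, 1298 (84.2%) were called in 1 library, against 74.1% of all 7727 regions of the series. The others were called in 2 (145), 3 (48) or all 4 libraries (50, that is 3.24% against 8.27% of all regions). p53WT 2 alone called 790 and CASM34 2 alone 389, while p53WT 1 alone called 47 and CASM34 1 alone 72. Both libraries numbered 2 and no other shared 111 regions. Both p53WT libraries alone shared 10 (0.649%, against 1.11% of all regions) and both CASM34 libraries alone shared 5 (0.324%, against 0.789%). Both libraries numbered 1 and no other shared 3. The split by group thus separated 15 regions, the split by number 114, and the crossed split 16. The libraries numbered 2 had far more gene body peaks, so the 3 splits do not compare pairs of like length. Of the gene body peaks of p53WT 1, 56.3% met a peak of p53WT 2 (95% interval 47.7 to 64.5), 47.2% met one of CASM34 1 and 53.5% one of CASM34 2. Of the other peaks of p53WT 1, 28.8% at gene ends, 62.4% outside genes within 100 kb and 62.2% farther away met a peak of CASM34 1.

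**Figure D4:**
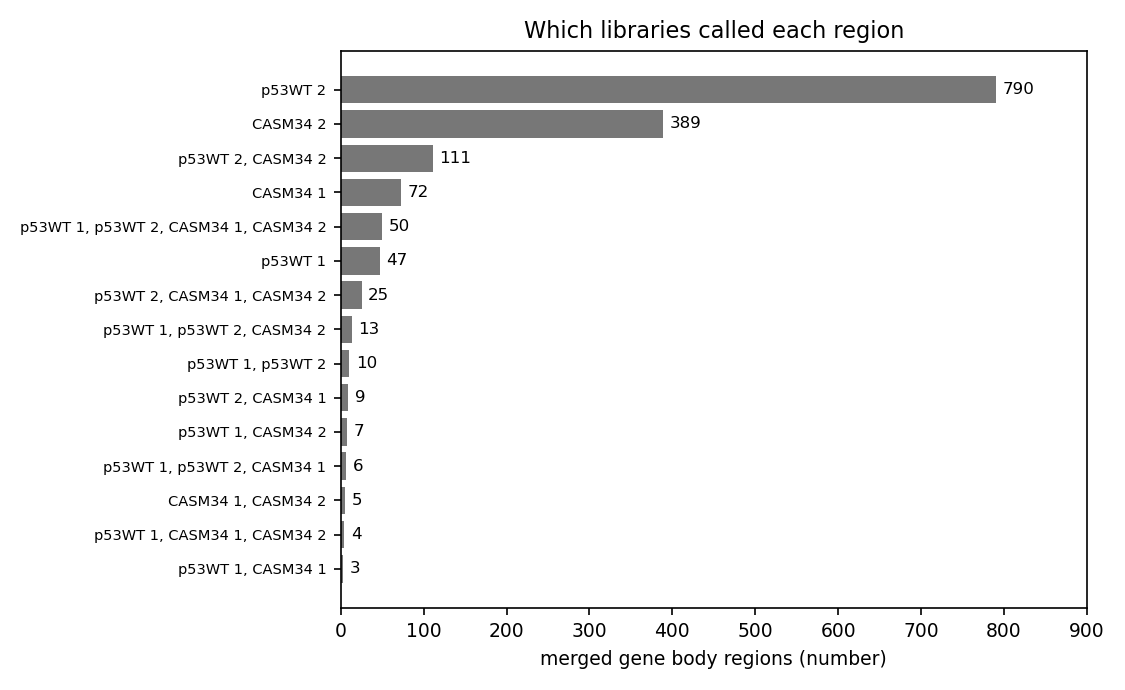
Number of merged gene body regions called by each combination of libraries, 1 bar per combination. Regions of p53WT 2 alone (790) and CASM34 2 alone (389) make up most of the 1541, and the 2 groups alone hold 10 and 5.

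Genes with strong regions in all 4 libraries included DUX4, TMEM242, ADAP1 and ART1, and whether their roles are related was not tested. DUX4, a homeobox gene of the D4Z4 repeat array, held a pair of such regions. The stronger (chr4:190179203-190180004) had folds of 12.4 and 13.5 with p53WT and 14.8 and 13.3 with CASM34, and the other (chr4:190177444-190178535) 7.17 and 6.54 against 6.15 and 6.28. Reads of this array can be split between near-identical copies, so both are uncertain. TMEM242, a mitochondrial membrane protein, held 3 such regions, the best with folds of 14.0 to 15.9 (chr6:157310425-157311000). ADAP1, a protein of Arf signalling, had folds of 13.0 to 16.9 (chr7:905550-906570). ART1, an ADP-ribosyltransferase, had folds of 15.9 to 18.2 (chr11:3653799-3654795). The groups overlap in the stronger DUX4 region, in TMEM242 and in ADAP1. They do not in ART1, where CASM34 is higher by little, or in the other DUX4 region, where p53WT is higher. With 2 libraries against 2 such a split has an exact permutation p of 0.33. Of 285 genes of families with near-identical copies or repeats, 2, 11, 2 and 8 held a gene body peak (0.702%, 3.86%, 0.702% and 2.81%). Of all genes long enough to hold one, 0.658%, 4.89%, 0.857% and 2.89% did. The 2 sets are not matched for length, with medians of 11.5 kb for the families and 27.4 kb for all such genes. Among genes of 10 to 50 kb the shares were 0.360%, 2.63%, 0.447% and 1.64%, below those of the families. Of the 50 shared regions 27 (54.0%) lay within 5 Mb of the outermost gene. Of the 49 off chromosome 8, 0 met an internal start window. By the rule of 3 (3 divided by the number of regions) this allows a share of up to 6.12%, an approximate limit and not an exact interval. Of the regions off chromosome 8 shared by both libraries numbered 2 and no other, 27 of 98 (27.6%) met such a window.

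**Figure D5:**
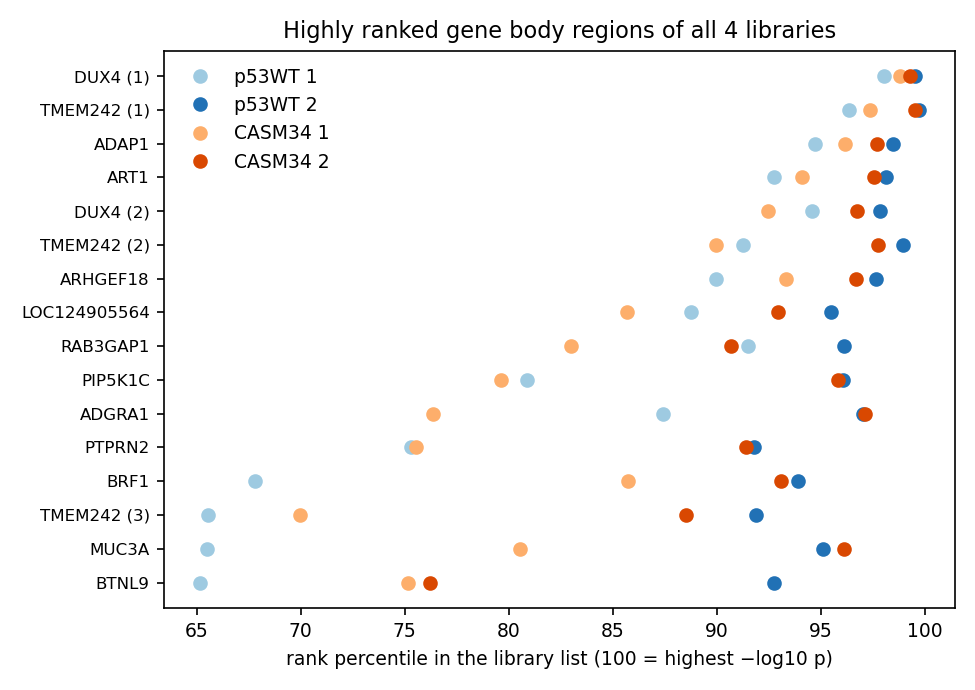
Rank percentile (100 = highest −log10 p of the list) of 16 highly ranked gene body regions called in all 4 libraries, 1 point per library, genes in order of their lowest value. The 5 regions at the top stay between 92.5 and 99.7 in every library; percentiles are read within a library, since the lists hold from 1591 to 4946 peaks.

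Several genes carried clusters of peaks. PTPRN2, a phosphatase-like protein of secretory vesicles, spans 1049 kb and had 3 peaks in p53WT 1, 6 in p53WT 2, 4 with CASM34 in library 1 and 8 in library 2. TTC34, a tetratricopeptide repeat protein, had 4, 6, 4 and 5 in that order, and its 6 regions called in at least 2 libraries were more than those of any other gene. RIPK1, a kinase of tumour necrosis factor signalling and necroptosis, had 4, 4, 3 and 3, and RPH3AL, an effector of Rab proteins in exocytosis, had 3, 4, 3 and 2. SMOC2, a matrix protein, had 1, 5, 2 and 4, KATNAL2, a katanin-like microtubule-severing subunit, 1, 5, 2 and 3, and DYNC2I1, an intermediate chain of dynein 2, had 2, 3, 1 and 2. TMEM242 had 3 in every library. DUX4 had 2 or 3 and the hornerin gene HRNR, itself built of repeats, 1 to 3. No gene of these had peaks in 1 group alone, but a ranking by the sum over the 4 libraries favours genes called in both groups. RALYL, below this cut and chosen after its values were seen, had 3, 3, 0 and 0 peaks. It had 0 regions called in at least 2 libraries.

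Host genes were long. Their median length was 134.1 kb in p53WT 1, 105.3 kb in p53WT 2, 117.4 kb in CASM34 1 and 108.2 kb in CASM34 2, against 27.4 kb for the 18680 protein-coding genes long enough to hold such a peak. Of those genes 0.658% held a gene body peak in p53WT 1, 4.89% in p53WT 2, as did 0.857% in CASM34 1 and 2.89% in CASM34 2. Among genes over 200 kb the shares were 3.15%, 18.2%, 3.58% and 10.5%. Per Mb of gene the order turned round, with 2.84 peaks in genes of 2 to 10 kb against 0.547 in those over 200 kb in p53WT 2, and 1.44 against 0.303 in CASM34 2. Of 25 very long genes, many of them at common fragile sites, 4, 6, 3 and 4 held a peak (16%, 24%, 12% and 16%). Their median length was 1380 kb, so the genes over 200 kb are not matched to them. PTPRN2 was among those with a peak in all 4 libraries, as was SDK1, chosen after its values were seen.

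Known direct p53 targets had gene body peaks mostly in the libraries numbered 2, as did protein-coding genes at large. Of 132 targets long enough, 1 held a peak in p53WT 1 (0.758%), 9 in p53WT 2 (6.82%), while 0 did so in CASM34 1 and 7 in CASM34 2 (5.30%), against the 0.658%, 4.89%, 0.857% and 2.89% of all such genes. With lists of equal length the targets were 2 in p53WT 2 and 5 in CASM34 2, so that their order turned. Of 35 cell cycle genes that the DREAM complex represses, 0 held a gene body peak in any library. Of 30 housekeeping genes, 0, 3, 1 and 1 did. The targets were not the strongest peaks of their lists. Since CASM34 1 had 0 targets with a gene body peak, none could have one in both libraries of CASM34. Peaks of targets at gene ends are not counted here.

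The stress gene SESN1, a p53 target that restrains mTORC1 signalling, was the only target with gene body peaks in 3 libraries. Its region at chr6:109009078-109009540, beside the internal starts at 109008988 and 109009552, had a fold of 5.24 in p53WT 1, 5.44 in p53WT 2 and 8.77 in CASM34 2, and was not called in CASM34 1. The −log10 q was 3.43, 3.73 and 11.9, so CASM34 2 was highest and the p53WT libraries were close to each other. The span of SESN1 overlaps that of ARMC2 here, so the host gene is not unique. Further peaks lay near the middle of SESN1, at 109046516 to 109046724 in p53WT 1 and at 109046200 to 109046371 and 109047427 to 109047639 in CASM34 2, none of which overlap.

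AEN, a nuclease that enhances apoptosis, was called in both libraries numbered 2 at its internal start (chr15:88621258-88621688). The fold was 7.57 in p53WT 2 and 6.02 in CASM34 2, and the rank percentile 87.2 and 67.6. Of 41 internal starts of 30 direct targets, both libraries numbered 2 met the same 3, those of AEN and SESN1, that is 7.32% against the 1.75% and 1.18% of all internal starts; the pair of SESN1 windows shares a peak. PLXNB2, a semaphorin receptor, had overlapping peaks 1338 bp from its stop-side end in p53WT 2 and 1365 bp in CASM34 2, with folds of 6.17 and 6.01. ASTN2, a glycoprotein of neuronal migration, had a peak in each at different places, so that the gene but not the region was shared. The folds were 5.23 in p53WT 2 and 3.78 in CASM34 2, and the rank percentiles 59.9 and 2.75.

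CDKN1A, which encodes the cyclin-dependent kinase inhibitor p21, had a gene body peak in p53WT 2, at chr6:36678790-36678986 with a fold of 4.18. This peak lay 174 bp from the internal CDKN1A start at 36678714 and met the window of the antisense non-coding gene DINOL. In CASM34 2 no peak lay in the gene body. One peak (chr6:36676192-36676642) spanned the end of the gene on its start side, with a fold of 6.31. Its rank percentile was 82.8, and that of the gene body peak of p53WT 2 was 58.7, each read within its own list. Another CASM34 2 peak lay 9105 bp outside the gene, with a fold of 4.03. Neither library numbered 1 had a peak at CDKN1A. MDM2, the ubiquitin ligase that degrades p53, had no gene body peak in any library. In p53WT 2 it had a gene end peak, 203 bp from an end of the gene, with a fold of 4.92. Gene ends include the start side, and the strand of MDM2 was not in the start table. The other targets with a peak in 1 library were chosen after their values were seen. In p53WT 2 these were BBC3, the death gene PUMA (fold 3.41), FANCC of Fanconi anaemia repair (3.66), the phosphatase INPP5D (3.81) and the kinase MAST4 (2 peaks, 4.35 and 3.81). The rank percentiles of these peaks were 3.05, 0.445, 10.7, 30.4 and 10.7, so they were among the weaker peaks of that list. In CASM34 2 they were the lesion-bypass polymerase POLH (4.32), CRYBG1 (4.82) and the damage-response gene GADD45A (6.08), with rank percentiles of 23.9, 51.5 and 72.7. The GADD45A peak lay 1050 bp from the gene end at 67685201, close to the limit. Whether this is the start or the stop side was not typed, since the strand was not in the start table. In p53WT 2 an overlapping peak inside the gene, 659 bp from that end, counts as a gene end peak.

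Regions of 1 group alone were few. Among the 10 of both p53WT libraries, the best-ranked lay in TTC34 (54.2 in p53WT 1 and 38.3 in p53WT 2, chr1:2697693-2697898), followed by the cytochrome CYP4F11 (36.0 in p53WT 1 and 71.7 in p53WT 2). The others of the 8 best lay in MACROD2, a mono-ADP-ribosylhydrolase (18.5 and 41.5), the calcium pump gene ATP2A2 (16.6 and 73.8), the endoribonuclease gene YBEY (15.8 and 59.6), ARHGAP39 (15.8 and 82.2), the kinase gene CDK13 (11.4 and 78.3) and the palmitoyltransferase gene ZDHHC7 (9.11 and 24.8). The ATP2A2 region also held a peak at the gene end. The 5 of both CASM34 libraries lay in GMEB2, a binder of glucocorticoid modulatory elements (38.3 in CASM34 1 and 64.1 in CASM34 2), SMOC2 (33.6 and 64.2), the protein kinase A subunit gene PRKAR1B (22.4 and 24.7), the neuropeptide receptor gene VIPR2 (13.8 and 40.5) and ARID1B, a SWI/SNF subunit (13.8 and 47.6). These percentiles are read within a list, and the lists do not show what lay just under the threshold in the other group.

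The best-ranked regions of both libraries numbered 2 alone lay in ARHGAP39 (lowest rank percentile 83.8), the phospholipase C gene PLCH2 (82.3), TTC34 (80.2) and AHRR, the repressor of the aryl hydrocarbon receptor (78.8 and 73.9 for its 2 regions). PLXNB2 (72.3), a region in the shared span of GTF2H2C_2 and NKD2 (69.7) and LIN28B (69.5) followed. LIN28B had folds of 5.66 in p53WT 2 and 5.96 in CASM34 2 at the start whose sequence is given above. The same peaks also met the window of the antisense non-coding gene LIN28B-AS1, whose internal start lies at 104940527. Of the 250 bases before that start, 172 lay in the p53WT 2 peak and 82 in the CASM34 2 peak. Other internal starts met in these libraries alone, chosen after their values were seen, belong to the ataxin gene ATXN1 and PRKAG2, a subunit of AMP-activated kinase, with lowest percentiles of 51.7 and 47.5.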

How the data were processed

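Peak lists of 4 p53 ChIP-seq libraries were used, 1 per library. Reads had been trimmed, aligned and handled with tools among which the submitters' processing notes list Trim Galore, Bowtie2 and bedtools, on GRCh38. Caller, control library and calling threshold of the peaks: not given in the sources used here. Each row holds a deposited score, a deposited fold (ratio of signal over background), and a deposited −log10 p and −log10 q, all the authors' own and used to describe or rank peaks within a list (the score was not used). Repeated intervals entered once, with the summit of highest −log10 p. The lists carry no counts, so depth is unknown.

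Genes came from RefSeq (GRCh38.p14, 19974 protein-coding genes on chromosomes 1 to 22 and X). Starts and strand came from a RefSeq table of 300-bp windows, which holds no chromosome 8 and gives the strand of 15812 of these genes. The same table gave the sequences. Half-sites were searched as exact matches; the consensus reads the same on both strands. Peaks were merged at an overlap of 1 bp. Tested on simulated data, the merging found all 200 regions planted for each of 5 library patterns. Groups were compared with exact two-sided permutation tests over libraries (Python 3.11.15, numpy 2.4.6, pandas 2.3.3, scipy 1.17.1).

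Genes are named by a rule: CDKN1A and MDM2; each direct target whose gene body peaks came from at least 2 libraries; the 8 best regions of 4 classes; and the 10 genes with most gene body peaks or most regions called in at least 2 libraries, given with examples. An item picked out by this rule is not reported here, although counts include it. Members and lists were chosen with earlier results of these data known. Alternatives were q thresholds, lists of equal length, summits, 2 and 5 kb limits, merging rules, left-out libraries and the replicate block.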

Additional observations from a re-analysis of the deposited data

How the results depend on the processing

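With 2 libraries against 2 no alternative can pass a threshold of 0.05, so only directions and sizes are compared, and the cause of a change was not tested except where fewer libraries stand for a group. With peaks filtered to −log10 q ≥ 5 the group difference (p53WT minus CASM34) turned to -0.79 percentage points in share and -8.5 in number, and with lists of equal length to -0.60 and -9.5. Leaving out 1 library gave -5.57 to 5.91 points, -245.5 to 625.5 peaks and 0.059 to 5.24 kb in median distance; share and number were negative without p53WT 2 and without CASM34 1. It gave 16 to 801 p53WT-specific and 9 to 396 CASM34-specific regions, since 1 library then stands for its group. The p53WT-specific regions were 3 under the filter −log10 q ≥ 3, 1 under ≥ 5, 6 with equal lists and 5 when 5 kb from ends were required. The CASM34-specific ones were 2 under the filter −log10 q ≥ 5 and 9 with equal lists. Direct targets in p53WT 2 were 5 under the filter ≥ 3, 2 under ≥ 5, 2 with equal lists and 5 beyond 5 kb. Under the filter ≥ 5, p53WT 1 had 0 of them and CASM34 2 had 4. Regions in all 4 libraries stayed between 36 and 51. Leaving out peaks at internal starts or near chromosome ends, chosen after seeing the data, reversed none of the 3 group differences.

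With the replicate number as a block the differences were again 0.17 points, 190 peaks and 2.65 kb (exact sign-flip permutation p of 1, 1 and 0.5, smallest possible 0.5). Deviations of same-numbered libraries correlated at -0.29 over 1541 regions and 0.40 over the 243 called in at least 2 libraries. The sign changed with the regions kept, and 1298 of the 1541 were called in 1 library. Neither value can therefore tell whether same-numbered libraries are paired. The crossed pairing, added after seeing the data, separated 16 regions against 114 by number, with list lengths not matched.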
